A study of Mus musculus with 4 samples.

Results

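The 8 genes described here are inhibitors of cysteine proteases of the cystatin family: Csta1, Stfa1, Stfa2, Stfa3, Stfa2l1 and BC100530, which form a cluster of stefins on mouse chromosome 16, and Cstb and Cst6, which lie elsewhere. They were chosen by name, as 8 of the 25071 gene symbols found over the 4 libraries. The libraries were made by Drop-seq, a droplet method that tags the 3′ ends of polyadenylated RNA of single cells with a cell barcode and a unique molecular identifier (UMI), so that a UMI count is a count of captured molecules. Vaginal epithelium of C57BL/6 mice was examined in 2 libraries from surgically ovariectomised mice (OVX1 and OVX2) and 2 libraries from ovary-intact wild-type mice (WT1 and WT2). No transgene or other agent is named for either group. Every library pooled 5 mice, and the sources used here state neither age nor oestrous stage. The duplicates may come from 1 pool of mice or from separate pools, so p-values between the groups cover the spread of these libraries alone, and that spread may be technical.

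Stefins, or type 1 cystatins, are small proteins without a secretion signal that act inside the cell, where they block the active site of papain-like cysteine proteases such as cathepsins. Humans have 1 stefin A gene, CSTA, whose product is crosslinked into the cornified envelope of keratinocytes, while the mouse carries an expanded group of related genes. Stefin B, encoded by Cstb, is made in most cell types. Cystatin E/M, encoded by Cst6, is a secreted inhibitor of legumain and of cathepsin L-type proteases that is known for its role in the cornification of skin.

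The 6 stefin genes lie within 335 kb of chromosome 16 (GRCm38, GENCODE annotation). Csta1 occupies chr16:36119946-36131241 on the minus strand, Stfa2l1 chr16:36156811-36161953 on the plus strand, and Stfa1 chr16:36276951-36285373 on the plus strand. BC100530 at chr16:36359382-36367748, Stfa2 at chr16:36403992-36408457 and Stfa3 at chr16:36450537-36455392 are all on the minus strand. Cstb lies at chr10:78425669-78427622 on the plus strand and Cst6 at chr19:5344705-5349574 on the minus strand. All 8 are annotated as protein coding, and the values below count molecules assigned to the whole gene.

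The near-identity of some copies limits what their separate counts mean, so the last 60 coding bases of the 6 stefins, stop codon included, are shown from the GRCm38 annotation. Capitals mark bases that differ from BC100530.
BC100530: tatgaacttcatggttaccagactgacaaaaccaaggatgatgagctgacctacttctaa
Stfa1: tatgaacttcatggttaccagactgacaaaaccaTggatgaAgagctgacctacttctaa
Csta1: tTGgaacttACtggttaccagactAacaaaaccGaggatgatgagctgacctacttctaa
Stfa2: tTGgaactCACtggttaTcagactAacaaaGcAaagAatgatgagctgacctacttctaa
Stfa2l1: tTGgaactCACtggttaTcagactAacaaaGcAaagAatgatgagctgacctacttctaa
Stfa3: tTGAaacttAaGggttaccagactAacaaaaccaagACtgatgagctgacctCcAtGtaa

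Over this stretch Stfa1 differed from BC100530 at 2 bases, Csta1 at 6 and Stfa3 at 11, while Stfa2 and Stfa2l1 were identical to each other. Over the aligned bases of the coding sequences, BC100530 and Stfa1 were 98.0% identical and Stfa2 and Stfa2l1 96.5%. The median was 81.7% over the 15 pairs of the cluster. For BC100530 and Stfa1 the aligned bases were 294, while the coding sequence of Stfa1 has 387. Cstb was 57.0% to 62.8% identical to the 6 stefins of chromosome 16 and Cst6 53.3% to 64.6%. In the last 500 bases of the transcript (or all of a shorter one), the end that Drop-seq reads come from, 41.5% of the 50-base words of BC100530 also occurred in other genes, most of them in Stfa1 and BC117090, a further stefin-like gene. The share was 26.2% for Stfa1, 24.6% for Stfa2l1 and 15.9% for Stfa2. It was 0% for Csta1, Stfa3, Cstb and Cst6. Each end is that of 1 annotated transcript per gene, the one with the longest coding sequence. Csta1 and Stfa1 have 2 annotated transcripts each, and BC100530 and Cst6 have 3, so ends of other transcripts are not covered. The counts of BC100530, Stfa1, Stfa2 and Stfa2l1 are therefore uncertain as to the copy, since no source used here says how reads were assigned to copies, whereas no word in the ends of Csta1 and Stfa3 occurs in another gene, although 2.22% of the words of BC100530's end occur elsewhere in Csta1.

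**Figure D1:**
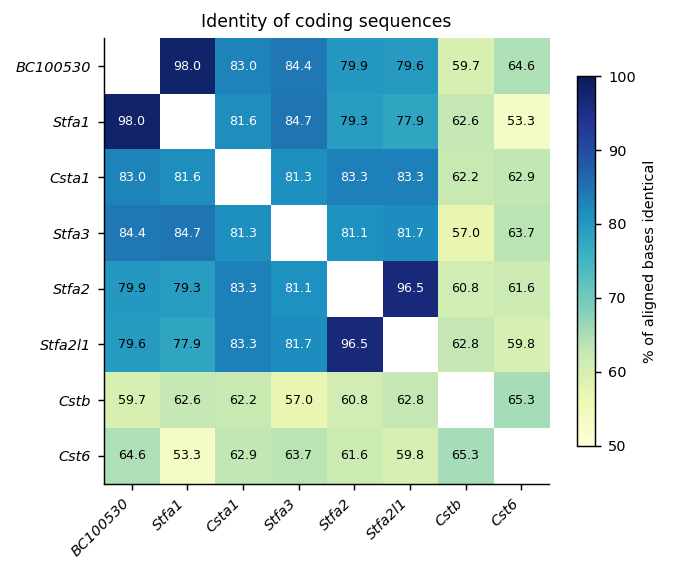
Percent of aligned bases that are identical between the coding sequences of each pair of the 8 genes, in rows and columns, by global alignment. BC100530 with Stfa1 (98.0%) and Stfa2 with Stfa2l1 (96.5%) stand above the median of 81.7% over the pairs of the chromosome 16 cluster, and Cstb and Cst6 are set apart.

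Because the stefins of the cluster moved together, the bases just before their start sites are also shown. RefSeq (GRCm38.p6) had a promoter entry for 6 of the 8 genes, namely the stefins of chromosome 16, BC100530 being listed there as Cstdc5. The stretches run 5′ to 3′ on the gene's strand from a shared word to the base before the RefSeq start. Capitals mark the 2 words of at least 10 bases that all 6 promoter windows hold, ACTCAGCATTTCC and CACACTCATT. In the order printed, the stretches are chr16:36367571-36367691 (minus strand), chr16:36131190-36131244 (minus strand), chr16:36277006-36277147 (plus strand) and chr16:36455393-36455536 (minus strand). Those of BC100530 and Stfa1, and all but the first bases of that of Csta1, are inside the GENCODE gene.
BC100530: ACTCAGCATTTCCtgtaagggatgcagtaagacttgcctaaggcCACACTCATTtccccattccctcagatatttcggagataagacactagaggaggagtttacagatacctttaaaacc
Csta1: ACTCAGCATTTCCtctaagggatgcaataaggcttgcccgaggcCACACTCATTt
Stfa1: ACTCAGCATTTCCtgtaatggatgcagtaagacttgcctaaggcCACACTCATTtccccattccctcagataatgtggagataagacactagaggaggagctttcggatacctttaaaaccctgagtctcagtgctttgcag
Stfa3: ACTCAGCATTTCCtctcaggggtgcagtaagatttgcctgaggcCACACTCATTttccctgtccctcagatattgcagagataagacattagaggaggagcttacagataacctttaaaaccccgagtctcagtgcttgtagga

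The first word, ACTCAGCATTTCC, was in the promoters of all 6 stefins with an entry and in 10 of 32851 promoter windows of 300 bases (0.0304%), searched on both strands. CACACTCATT was in the same 6 and in 37 windows (0.113%). The 2 words do not overlap, and since they were found in these promoters their presence there is no result. The AP-1 motif TGANTCA was in 1 of the 6, Stfa3, against 7.81% of all windows. These are matches of letters within promoters of related copies, not measured binding sites.

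Of the deposited barcodes, those with 200 genes or more and a mitochondrial share of up to 20% were kept, 1573 in OVX1 and 1907 in OVX2, against 2979 in WT1 and 1987 in WT2. The OVX libraries were shallower and differed in content. The median was 435 and 738 UMIs per cell in the OVX libraries and 1597 and 799 in the WT libraries. Malat1, a nuclear RNA, made up 2.50% and 1.81% of OVX UMIs and 0.336% and 0.465% of WT UMIs, and the median mitochondrial share was 8.97% and 9.69% against 4.00% and 3.85%. Fibroblast markers summed to 208 and 188 UMIs per 1000000 UMIs (CPM) in OVX and 1.20 and 25.9 CPM in WT, and the markers of MHC class II and myeloid cells to 841 and 440 CPM in OVX and 119 and 131 CPM in WT. The part of depth, RNA quality and other cells in the results below was not tested, except where a value is given. In all, 37 barcodes occurred in more than 1 library, 9 of them among kept cells, and leaving these out changed no call among the 8 genes in the sums of all kept cells.

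After ovariectomy Csta1, Stfa1, Stfa2, Stfa3, BC100530 and Cst6 fell to between 0 and 52 molecules per library, while the levels of Cstb overlapped between the groups. The 6 stefins together gave 25 UMIs in OVX1 and 64 in OVX2, against 14231 in WT1 and 7217 in WT2. Per 1000000 UMIs (CPM) this was 31.3 and 39.1 in OVX and 2441 and 3739 in WT, so the lowest WT library lay far above both OVX libraries. As a single sum the cluster fell by 6.57 on the log2 scale (SE 0.57, adjusted p = 0.00376, edgeR quasi-likelihood test, OVX over WT). The sum does not depend on how reads were split among these 6 copies. In sums over cells, fewer cells of a type and less RNA per cell cannot be told apart.

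Of the 7 genes with enough counts to be tested, 6 were lower in OVX at an adjusted p under 0.05, the threshold used throughout, and none was higher. The same test called 2.52% of the 11495 genes tested lower. Stfa2l1, at 0 UMIs in both OVX libraries and 6 and 2 UMIs in the WT libraries, did not pass the filter on low counts. Csta1, Stfa1, Stfa2, Stfa3 and Cst6, low or at 0 in OVX, passed that filter only through their WT counts. The number of tested genes that fell is therefore a description.

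BC100530, a stefin A-like gene, gave most of the cluster's UMIs. It had 19 and 52 UMIs in OVX (23.8 and 31.8 CPM) and 11101 and 6340 UMIs in WT (1904 and 3285 CPM). Its log2 fold change was -6.66 (SE 0.60, edgeR adjusted p = 0.00365). Csta1, the mouse gene that carries the name of stefin A, had 2 UMIs in each OVX library (2.50 and 1.22 CPM), against 1667 and 491 UMIs in WT (286 and 254 CPM), and its log2 fold change was -7.41 (SE 0.59, edgeR adjusted p = 0.00263). Stfa3 had 4 and 10 UMIs in OVX (5.01 and 6.11 CPM) and 1329 and 320 in WT (228 and 166 CPM), with a log2 fold change of -5.23 ± 0.51 (SE; adjusted p = 0.00368, edgeR). None of the 3 had overlapping groups. Csta1 and Stfa3, the stefins with no 50-base word of the 3′ end used in another annotated gene, both fell. Both passed the filter on low counts only through their WT counts, so their calls are a description.

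Stfa1 had no UMI in either OVX library and 56 and 49 UMIs in WT (9.61 and 25.4 CPM). Against a floor of 3 counts over the group it was at least 11.0-fold lower in OVX (edgeR adjusted p = 0.0284). Stfa2 was also at 0 in OVX, with 72 and 15 UMIs in WT (12.3 and 7.77 CPM), and was at least 9.10-fold lower (edgeR adjusted p = 0.0276). For Stfa2 the call was lost without OVX2 (edgeR adjusted p = 0.0797). Both passed the filter only through their WT counts and are uncertain as to the copy, so these values are a description.

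Cst6, the secreted inhibitor, had 0 and 1 UMI in OVX (0 and 0.611 CPM) and 141 and 91 UMIs in WT (24.2 and 47.1 CPM), and it was lower in OVX (edgeR adjusted p = 0.00942). Cst6 passed the filter on low counts only through its WT counts, so its call is a description. With a single OVX molecule the pooled ratio of WT over OVX was 72.8. Its exact 95% interval of 12.9 to 2888 covers counting error only. The corresponding pooled ratio, WT over OVX, was 169 for Csta1 (66.0 to 622), 77.1 for BC100530 (61.1 to 98.8) and 37.0 for Stfa3 (22.0 to 67.8).

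Cstb, the widely expressed stefin B, stood apart from the others. It had 359 and 587 UMIs in OVX (449 and 359 CPM) and 2213 and 1385 UMIs in WT (380 and 718 CPM), so the groups overlapped. Its log2 fold change was -0.58 (SE 0.45, edgeR adjusted p = 0.524), and leaving out single libraries moved it between -0.94 and -0.12. As a result Cstb made up 91.3% of the UMIs of the 8 genes in OVX (946 of 1036) and 14.2% in WT (3598 of 25278). Within the cluster of chromosome 16 the leading gene was the same in both groups, since BC100530 held 79.8% of its UMIs in OVX (71 of 89) and 81.3% in WT (17441 of 21448).

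**Figure D2:**
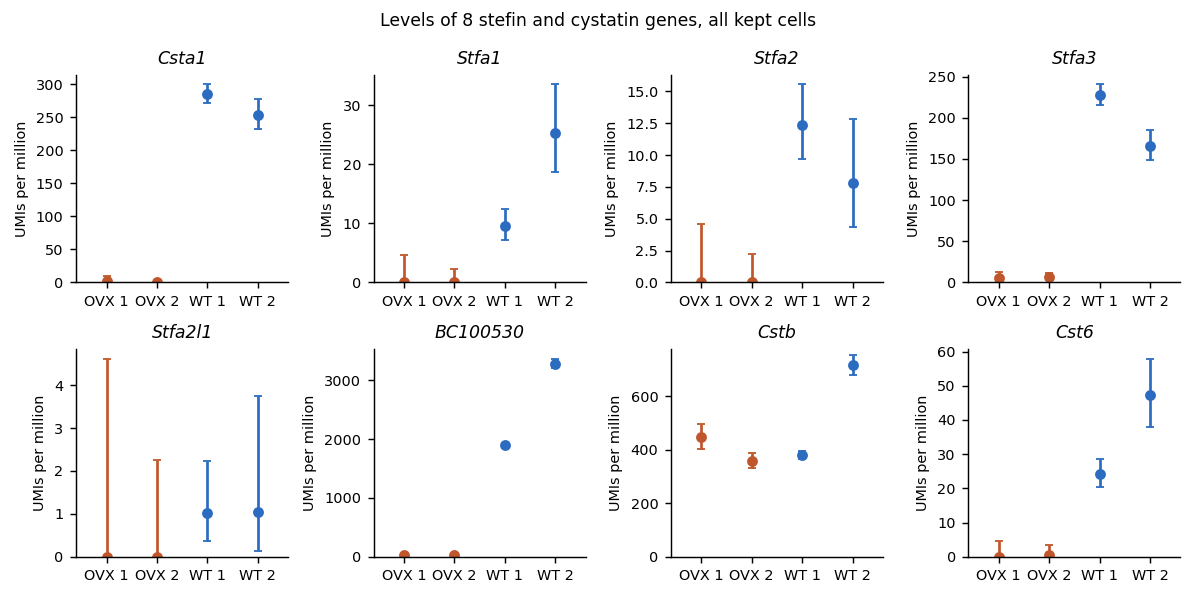
CPM (linear vertical axis from 0, with its own scale per gene) of each of the 8 genes in all kept cells, one point per library, OVX left of WT, with bars for exact 95% Poisson intervals. Only the points of Cstb overlap between the groups (449 and 359 in OVX, 380 and 718 in WT), and the intervals of Stfa2 and Stfa2l1 overlap as well.

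The fall could also be seen per cell. At least 1 BC100530 UMI was found in 4 of 1573 kept cells of OVX1 (0.254%) and 11 of 1907 of OVX2 (0.577%), against 1372 of 2979 in WT1 (46.1%) and 875 of 1987 in WT2 (44.0%). After every cell was thinned to 300 UMIs, with 239 and 2 shallower OVX cells and 0 WT cells left out, the shares were 0.300% and 0.262% in OVX and 23.4% and 30.4% in WT. The groups remained far apart at equal depth. Csta1 had thinned shares of 0.0750% and 0.0525% in OVX and 6.88% and 6.39% in WT, and unthinned ones of 0.127% and 0.105% against 28.8% and 18.0%. Stfa3 had thinned shares of 0.0750% and 0.105% in OVX and 5.40% and 4.23% in WT, and unthinned ones of 0.254% and 0.367% against 19.3% and 10.5%.

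For Cstb the unthinned shares were apart and the thinned ones were not. Its unthinned share was 17.9% and 22.8% in OVX and 44.9% and 44.5% in WT, but at 300 UMIs per cell it was 10.8% and 8.66% in OVX and 10.6% and 17.7% in WT, with overlapping groups. Cst6 was found in 0% and 0.0524% of OVX cells and 4.10% and 4.08% of WT cells, and after thinning in no OVX cell and in 0.436% and 1.21% of WT cells.

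The few OVX cells that held BC100530 differed in how much they held. Exactly 1 UMI was found in 2 of the 4 positive cells of OVX1 and 6 of the 11 of OVX2. The mean was 4.75 and 4.73 UMIs per BC100530-positive cell in OVX, against 8.09 and 7.25 in WT. Cells with 5 UMIs or more, a limit chosen after the values were seen, numbered 1 and 4 in OVX and held 14 of 19 and 44 of 52 UMIs. In WT there were 583 and 346 such cells, with 9620 of 11101 and 5336 of 6340 UMIs. The largest value in 1 cell was 14 and 19 UMIs in OVX and 148 and 95 UMIs in WT. These counts per cell are not scaled to depth. The cells with 5 UMIs or more had a median of 437 and 1006 UMIs in all in OVX, against 2144 and 1136 in WT. The part of depth in these differences was not tested. The 5 OVX cells held no Csta1 UMI, and Stfa3 gave 0 UMIs in the cell of OVX1 and 4 in the cells of OVX2. By contrast, each of the 4 Csta1 molecules of the OVX libraries lay in a different cell.

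**Figure D3:**
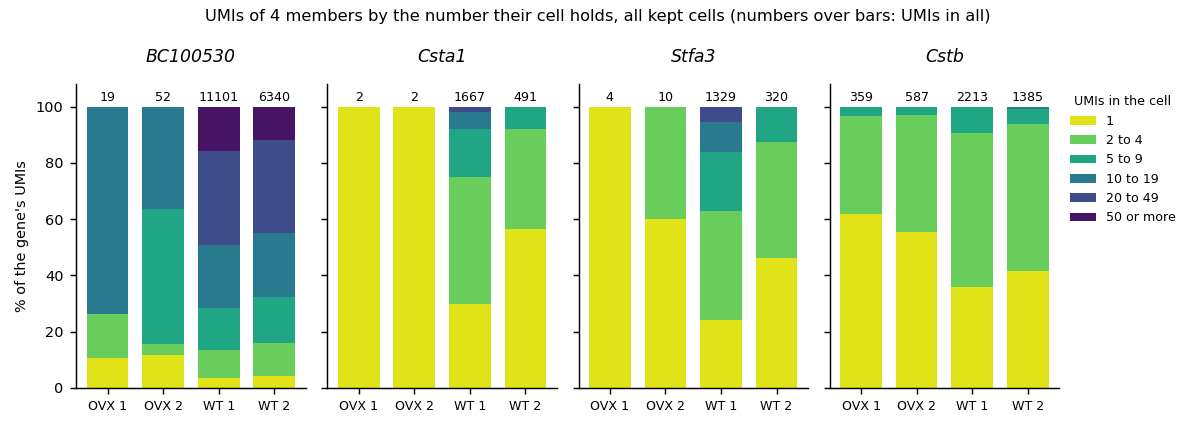
For BC100530, Csta1, Stfa3 and Cstb, stacked bars give the percent of a gene's UMIs (vertical axis) that lie in cells holding the number of its UMIs shown by the colour, for each library (horizontal axis), the OVX libraries left of the WT libraries. Most BC100530 UMIs lie in cells with 5 or more in all 4 libraries (14 of 19 and 44 of 52 in OVX, 9620 of 11101 and 5336 of 6340 in WT), whereas the few Csta1 UMIs of OVX lie in cells with 1.

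Stefin A genes are also expressed by neutrophils, which enter the vaginal lumen in parts of the oestrous cycle. A list of 11 neutrophil markers gave 0 and 3 UMIs in OVX and 59 and 23 UMIs in WT. Without S100a8 and S100a9, which stratified epithelium also expresses, it gave 0 and 3 UMIs in OVX and 6 and 1 in WT. Csf3r, Mmp8, Ngp, Mpo and Elane were at 0 in all 4 libraries. The WT libraries thus held 14231 and 7217 molecules of the cluster beside 6 and 1 of this narrower list. Cells with 5 BC100530 UMIs or more held no UMI of the full list in OVX, and 44 of 59 and 16 of 23 in WT, where they held 1472000 of 5830417 and 454612 of 1930040 of all UMIs. The part of neutrophil RNA in the WT levels was not tested.

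Free RNA in droplets can place a molecule in a cell that does not make it. In cells with at least 2 UMIs of the myeloid markers, BC100530 was found in 0 of 15 and 0 of 21 cells in OVX (exact 95% upper limits of 21.8% and 16.1% on cells with a UMI, not on cells that express the gene) and in 4 of 14 (28.6%) and 1 of 11 (9.09%) cells in WT. In WT1 the level in these cells was not low, at 122 UMIs (5090 CPM) of BC100530 and 12 UMIs (501 CPM) of Stfa3, while WT2 had 2 UMIs (279 CPM) and 0. Their median depth was 424 and 734 UMIs in OVX and 1162.5 and 527 in WT. The counts are too few to set a background for the WT shares, and doublets were not removed.

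To place the genes in the epithelium, each cell was assigned to a layer by marker UMIs, none of them from the 8 genes. Basal-gated cells passed on Krt5, Krt14, Krt15, Col17a1 and Itgb4 and on no other list. Suprabasal-gated cells passed on Krt1, Krt10, Krt4, Krt13, Krtdap and Sbsn without the simple keratins Krt7, Krt8 and Krt18. Passing took at least 2 UMIs and 0.25% of the cell's UMIs. Basal-gated cells numbered 1131 and 1569 in OVX and 1675 and 928 in WT. Suprabasal-gated cells numbered 33 and 56 in OVX, against 1269 and 1018 in WT. In OVX 26 of the 33 and 41 of the 56 lay within 1 UMI of a limit, and the suprabasal markers of the gated cells summed to 5040 and 4223 CPM in OVX and 10209 and 9493 CPM in WT.

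In WT all members that could be tested were higher in suprabasal-gated than in basal-gated cells, 7 of 7, where 4.75% of the 10410 genes tested were called higher. The step was largest for Cst6, at 43.8 and 74.2 CPM in the suprabasal and 8.16 and 15.1 CPM in the basal sums of WT1 and WT2, a log2 fold change of 2.46 ± 0.27 (SE; adjusted p = 5.96e-18, edgeR). BC100530 stood at 3128 and 4961 CPM in the suprabasal and 906 and 1298 CPM in the basal sums, a log2 fold change of 1.95 ± 0.11 (SE; adjusted p = 7.05e-71, edgeR). Csta1 rose by 1.28 (SE 0.11), Stfa3 by 1.31 (SE 0.12), Stfa1 by 1.36 (SE 0.36) and Stfa2 by 1.67 (SE 0.41) on the log2 scale. Cstb had the smallest step, 0.45 (SE 0.10), with 432 and 800 CPM in the suprabasal and 336 and 624 CPM in the basal sums. Stfa1, Stfa2 and Cst6 passed the filter on low counts only through their suprabasal-gated WT sums, so their calls are a description. The p-values of this fit rest on 2 WT libraries and a spread pooled over genes. Without WT1 as without WT2, 4 genes kept their call (Csta1, Stfa3, BC100530 and Cst6), and Cstb and Stfa1 lost theirs (edgeR adjusted p = 1 and 0.559 for Cstb). Stfa2 was not tested without WT1 and lost its call without WT2 (edgeR adjusted p = 0.146).

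Within basal-gated cells the abundant stefins were also lower after ovariectomy. Of 4 genes tested, 3 were lower in OVX, where 2.07% of 10056 genes were called lower. BC100530 had 8.37 and 15.9 CPM in OVX and 906 and 1298 CPM in WT (log2 fold change -6.45 ± 0.60 SE, adjusted p = 0.00604 in edgeR). Csta1 had 3.35 and 1.45 CPM in OVX and 179 and 154 CPM in WT (log2 fold change -6.30 ± 0.60 SE, adjusted p = 0.00604 in edgeR). Stfa3 had 5.02 and 5.06 CPM in OVX and 146 and 91.6 CPM in WT (log2 fold change -4.58 ± 0.55 SE, adjusted p = 0.00925 in edgeR). All 3 passed the filter on low counts only through their WT counts, so their calls are a description. Over the alternatives tried, leaving out each library among them, all 3 log2 fold changes stayed negative, between -7.14 and -4.16. The basal gate markers themselves summed to 8944 and 8373 CPM in these OVX cells and 39654 and 21973 CPM in these WT cells, and the suprabasal gate markers, which stayed under the gate's limit per cell, to 216 and 190 CPM in OVX and 925 and 872 CPM in WT. One of these, Krtdap, fell by 3.57 on the log2 scale in the same sums (SE 0.45, edgeR adjusted p = 0.00935). The basal-gated sums thus still held suprabasal marker UMIs, at a higher level in WT, and their part in the falls was not tested.

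Among the genes not tested in the basal sums, Stfa1 was at 0 in both OVX libraries and 5.65 and 15.1 CPM in WT, Stfa2 at 0 against 6.59 and 3.48 CPM, and Cst6 at 0 and 0.723 CPM against 8.16 and 15.1 CPM. The CPM values of none of them overlapped between the groups. For a gene at 0 UMIs in basal-gated OVX1 cells, however, the exact upper limit was 6.18 CPM. That limit lies above Stfa1 in WT1 (5.65) and Stfa2 in WT2 (3.48, from 3 UMIs). For these genes the zeros of OVX1 therefore do not resolve a difference from every WT library. The values of Cstb did overlap, at 430 and 356 CPM in OVX and 336 and 624 CPM in WT (log2 fold change -0.34 ± 0.45 SE, adjusted p = 0.754 in edgeR). The sign of its log2 fold change turned without WT2 (0.09).

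In suprabasal-gated cells 3 of 5 genes tested were lower in OVX, where 1.2% of 6808 genes were called lower and the median over all genes was -0.36 on the log2 scale. Csta1 had no UMI in OVX and 416 and 343 CPM in WT, which made it at least 9.74-fold lower (edgeR adjusted p = 4.01e-05). Csta1, and likewise Stfa3, passed the filter on low counts only through WT counts, so their values and calls here are a description. Stfa3 had 0 and 35.8 CPM in OVX and 330 and 231 CPM in WT (edgeR adjusted p = 0.0134), from 2 OVX molecules, and its pooled ratio of WT over OVX was 11.1 (3.08 to 92.1). BC100530 had 775 and 501 CPM in OVX and 3128 and 4961 CPM in WT (log2 fold change -3.09 ± 0.70 SE, adjusted p = 0.000924 in edgeR). All 3 calls were lost without OVX2, where the edgeR adjusted p was 0.383 for Csta1, 0.636 for Stfa3 and 0.188 for BC100530. Without OVX1 the call of Csta1 was kept and those of Stfa3 (0.420) and BC100530 (0.0554) were lost, in the same edgeR test with adjusted p. With the gate at 0.5% of UMIs Csta1 alone was called. Cst6 had no UMI in OVX against 43.8 and 74.2 CPM in WT (edgeR adjusted p = 0.201). Cstb had 554 and 501 CPM in OVX and 432 and 800 CPM in WT (log2 fold change -0.60 ± 0.63 SE, adjusted p = 0.768 in edgeR).

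**Figure D4:**
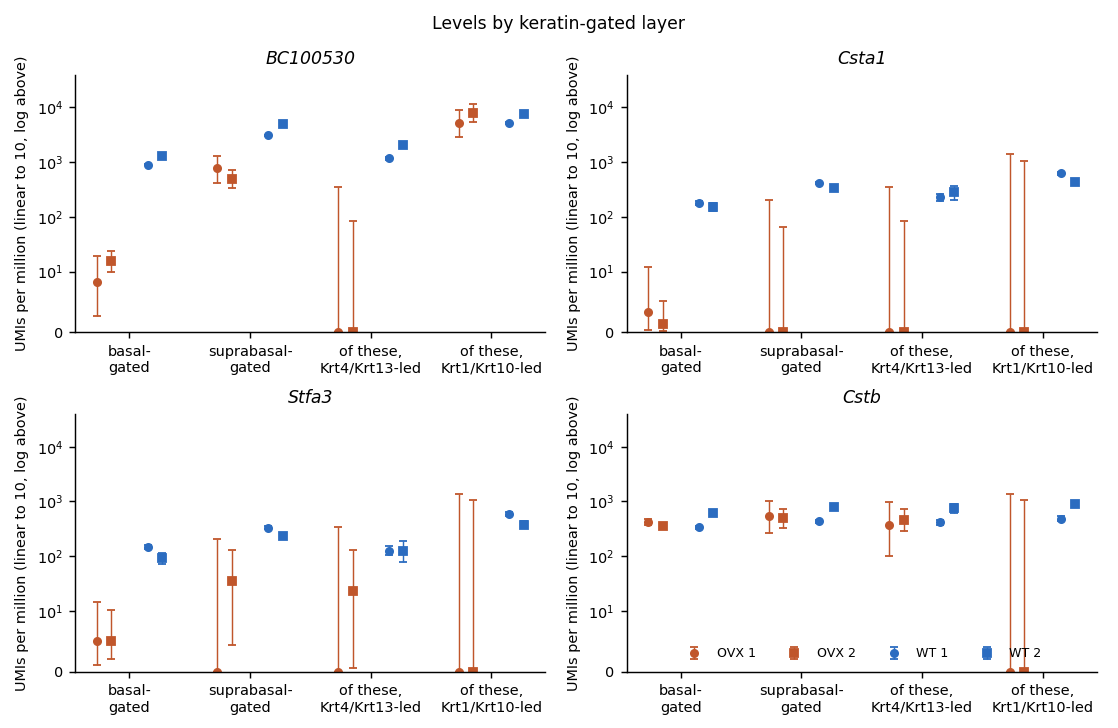
CPM of BC100530, Csta1, Stfa3 and Cstb (vertical axis, linear to 10 and log above) in basal-gated cells, suprabasal-gated cells and the Krt4/Krt13-led and Krt1/Krt10-led cells among these, one point per library with OVX left of WT and bars for exact 95% Poisson intervals. BC100530 in suprabasal-gated OVX cells (775 and 501) lies above BC100530 in basal-gated OVX cells (8.37 and 15.9), while Csta1 has no UMI in suprabasal-gated OVX cells.

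Whether the change with ovariectomy differed between the layers was tested in 1 fit of 8 sums with the library as a block. Of the 7 genes tested BC100530 alone was called, among 0.221% of 10410 genes called higher and 1.07% called lower. Its log2 fold change, OVX over WT, was 3.01 higher in suprabasal-gated than in basal-gated cells (SE 0.44, edgeR adjusted p = 9.09e-09), with 2.50 to 4.01 over the alternatives tried, all of them called. The whole table was shifted in this fit, with a median of -0.58 over all genes (-0.31 with RLE scaling), and 82.8% of its calls were lower, against 54.4% with RLE. For Csta1 (edgeR adjusted p = 0.761), Stfa3 (0.877) and Cstb no difference between layers was called. With OVX at or near 0 UMIs, the SE was 6.32 for Csta1, 8.04 for Cst6, 10916.9 for Stfa1 and 8051 for Stfa2. For these genes the difference could hardly be estimated, so their missing calls do not set BC100530 apart from them.

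The BC100530 value in suprabasal-gated OVX cells rests on very few cells. It was found in 1 of 33 cells of OVX1, with 14 UMIs, and in 2 of 56 cells of OVX2, with 28 UMIs together, against 770 of 1269 in WT1 (60.7%) and 577 of 1018 in WT2 (56.7%). All 3 OVX cells were Krt1/Krt10-led, meaning that they held more UMIs of Krt1 and Krt10 than of Krt4 and Krt13, the keratins of the other differentiation programme. The cell of OVX1, with 437 UMIs in all, held no Krt10 UMI, so it was placed there by Krt1 alone. Krt1/Krt10-led cells numbered 5 and 4 in OVX and 497 and 421 in WT. Their BC100530 level was 5269 and 8011 CPM in OVX and 5177 and 7511 CPM in WT, and the pooled ratio of WT over OVX was 0.863 (0.638 to 1.20, counting error only). In these same OVX cells Csta1, Stfa1, Stfa2, Stfa3, Cst6 and Cstb all had 0 UMIs, where WT had 621 and 438 CPM of Csta1, 583 and 374 CPM of Stfa3 and 488 and 906 CPM of Cstb. Since Cstb was at 0 as well, zeros in these 9 cells set only a loose limit.

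Krt4/Krt13-led cells numbered 20 and 41 in OVX and 431 and 176 in WT. BC100530 was at 0 UMIs in both OVX libraries and at 1169 and 2049 CPM in WT, at least 23.4-fold lower in OVX. Csta1 was likewise at 0 in OVX and at 227 and 281 CPM in WT. Stfa3 had 0 and 23.2 CPM in OVX against 126 and 126 CPM in WT, and Cst6 was at 0 in OVX against 41.6 and 53.8 CPM. Cstb was present there in both groups, at 374 and 465 CPM in OVX and 417 and 753 CPM in WT. No test was run on these smaller groups of cells.

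Within WT the stefins met in the same cells. In suprabasal-gated cells of WT1, Csta1 stood at 538 CPM in cells with a BC100530 UMI and 178 CPM in cells without, and in WT2 at 459 and 154 CPM. Stfa3 stood at 453 and 87.6 CPM in WT1 and at 318 and 90.8 CPM in WT2, in the same order. Of the Stfa1 molecules, 38 of 38 in WT1 and 34 of 35 in WT2 lay in cells with a BC100530 UMI. Such cells were 770 of 1269 in WT1 and 577 of 1018 in WT2. For Stfa1 this pattern and the 98.0% identity of its aligned coding bases with BC100530 go together, and their parts cannot be told apart. Stfa2, whose transcript end shares no word with that of BC100530, also lay largely in cells with a BC100530 UMI. It had 46 UMIs in them and 5 outside in WT1, and 11 and 1 in WT2. Cst6 shares no such word with BC100530 and also stood higher in the cells that held it, at 56.3 against 19.3 CPM in WT1 and 98.1 against 35.3 CPM in WT2. Cstb stood at 462 against 373 CPM and 877 against 676 CPM.

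Over 12 sums (4 libraries by basal-gated, suprabasal-gated and simple-gated cells), the profiles of Csta1 and Stfa3 were alike (Pearson's r = 0.95 of log2 CPM with a pseudocount of 10), as were those of Stfa1 and Cst6 (0.97). Csta1 and BC100530 were less so (0.62), and Cstb had r between -0.05 and 0.50 with the other members. Among all genes with at least 100 UMIs, those most like Csta1 were Spink12 (0.988), a serine protease inhibitor of the Kazal type, Tubb3 (0.981) and Fhl2 (0.971). Most like Cst6 were Teddm3 (0.993), the desmosomal cadherin Dsg1a (0.980) and the metallothionein Mt4 (0.976). Most like BC100530 was Krtdap (0.946), a gene of differentiated keratinocytes that is also a gate marker, then Pet100 (0.907) and Timm8b (0.886). For Stfa3 they were Slc16a14 (0.971), Flrt1 (0.962) and Tubb3 (0.955), and for Cstb Anxa1 (0.860), Arpc3 (0.835) and Ndufa7 (0.808). Some of the 12 sums are small, the simple-gated ones of WT1 and WT2 holding 12 and 11 cells with 14739 and 7393 UMIs. In the OVX sums and the simple-gated WT sums Stfa1 had no UMI and Cst6 had 1, so their likeness rests largely on shared zeros. BC100530 in the suprabasal-gated OVX sums comes from 1 cell of OVX1 and 2 cells of OVX2. The 12 sums also share libraries and depth, so these are descriptions.

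Other genes of the cystatin family were few. Of 20 listed, 8 were in the matrices and 2 were tested in all kept cells. BC117090, the stefin-like gene that shares words with BC100530 and Stfa1, had no UMI in OVX and 36 and 25 UMIs in WT, at least 6.38-fold lower. It too passed the filter only through WT (edgeR adjusted p = 0.0394, and 0.121 without OVX2). Cst3, the secreted cystatin C, had 350 and 268 CPM in OVX and 474 and 436 CPM in WT (log2 fold change -0.70, edgeR adjusted p = 0.368). Further unnamed relatives of the stefins were also at 0 in both OVX libraries, and in WT 2010005H15Rik had 19 and 14 UMIs, Gm5416 10 and 12, Gm4758 5 and 5, and Gm5483 5 and 1. Too few molecules were present for a test.

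Of 11 listed cysteine cathepsins and legumain, the proteases that cystatins inhibit, 9 were tested in all kept cells. None was lower and 1 was higher in OVX, where 2.58% of all genes tested were called higher, with a median log2 fold change of 0.64 against -0.03 over all genes tested. The gene that rose was Ctss, cathepsin S of antigen-presenting cells, at 40.1 and 57.4 CPM in OVX and 8.23 and 5.18 CPM in WT (log2 fold change 2.69 ± 0.48 SE, adjusted p = 0.0212 in edgeR). The call was lost without OVX2 (edgeR adjusted p = 0.0833) and after thinning to 300 UMIs (0.0778). Markers of MHC class II and myeloid cells moved with it, 4 of 7 being higher in OVX against the same 2.58% of all genes, and their part in its rise was not tested. Cathepsin B (Ctsb) had 224 and 149 CPM in OVX and 191 and 206 CPM in WT (edgeR adjusted p = 0.787), and cathepsin L (Ctsl) 277 and 340 CPM against 274 and 150 CPM (edgeR adjusted p = 0.671). In the fit of both layers the log2 fold change of Ctsl was lower in suprabasal-gated than in basal-gated cells, by -1.87 (edgeR adjusted p = 0.0137). That call rested on 2 and 6 OVX UMIs and was lost with RLE scaling (0.133) and without WT1 (0.621), WT2 (0.162) or OVX2 (0.369). Cathepsin H (Ctsh) had 85.1 and 67.8 CPM in OVX and 38.1 and 47.7 CPM in WT (edgeR adjusted p = 0.364), and cathepsin C (Ctsc) 33.8 and 21.4 CPM against 27.8 and 43.5 CPM (edgeR adjusted p = 0.567). Legumain (Lgmn), a target of cystatin E/M, had 16.3 and 9.77 CPM in OVX and 11.5 and 14.5 CPM in WT (edgeR adjusted p = 0.889).

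Of 12 listed genes that build or crosslink the cornified envelope 7 were tested in all kept cells. Of these 1 was lower in OVX, where 2.52% of all genes tested were called lower. Their median log2 fold change was -1.41, against -0.03 over all genes tested. Sprr1a, an envelope precursor, had 75.1 and 72.7 CPM in OVX and 436 and 454 CPM in WT (log2 fold change -2.73 ± 0.41 SE, adjusted p = 0.0123 in edgeR). The call was lost without OVX1 (edgeR adjusted p = 0.150) and without OVX2 (0.147). The transglutaminases Tgm1 (-2.40, adjusted p = 0.0650) and Tgm5 (-2.49, adjusted p = 0.0883) and envoplakin, Evpl (-0.96, adjusted p = 0.25), had negative log2 fold changes that did not pass the edgeR test. Periplakin, Ppl, stood at 0.05 (edgeR adjusted p = 0.972) and sciellin, Scel, at 1.71 (edgeR adjusted p = 0.0862). In suprabasal-gated cells Scel was the 1 envelope gene called and was higher in OVX, at 831 and 519 CPM against 68.4 and 26.96 CPM in WT (log2 fold change 3.39 ± 0.68 SE, adjusted p = 9.97e-05 in edgeR), where 1.4% of all genes were called higher. That call was lost without OVX2 (edgeR adjusted p = 0.0989) and with the gate at 0.5% of UMIs (0.246). In WT 6 of the 7 were higher in suprabasal-gated than in basal-gated cells, against 4.75% of all genes, and without WT1 none of the 6 was called (edgeR adjusted p = 0.0584 for Sprr1a).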

How the data were processed

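The authors deposited 1 matrix of whole-number UMI counts per library (gene symbols by cell barcodes), without normalization. Per the submitters' processing notes, mm10 was the build and Seurat 2 a tool. The aligner, the annotation and how barcodes were chosen are not stated in any source used here. Per the labels' protocols, the vaginae were treated with pronase before the epithelium was squeezed out by hand. The total was 991112 and 1684967 UMIs in OVX1 and OVX2 and 5845107 and 1934634 in WT1 and WT2.

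Kept cells (at least 200 genes, at most 20% mitochondrial UMIs) numbered 8446. No doublet caller was run, so doublets remain. Counts were summed over kept cells or gated cells of a library and given as UMIs per 1000000 UMIs of that sum (CPM), not divided by length because Drop-seq counts 3′ ends. Sums were tested with edgeR 4.0.16 (limma 3.58.1, R 4.3.3): TMM scaling, filterByExpr, glmQLFit and glmQLFTest, OVX over WT, with Benjamini-Hochberg adjustment over all genes tested. SE is the log2 fold change divided by the square root of F. The fit of 8 sums takes the library as a block, and its p-values leave out spread that both layers of a library share. Levels of genes at 0 in a group were bounded with 3 counts over the group. Intervals are exact at 95% and cover counting error only.

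The 8 genes, the marker and gene lists and the naming rule were chosen with earlier results of these data known. All 8 are named. Of each list at most 6 genes of highest mean CPM are given with values, and for each member with at least 100 UMIs the 3 genes most like it, except that those of Stfa1 are not reported here. Genes named outside that rule, the further stefin relatives and Lgmn among them, were chosen after their values were seen. Positions and coding sequences come from GENCODE vM21 (GRCm38), which may differ from the annotation behind the counts. Alignment used biopython 1.88, intervals scipy 1.17.1 with numpy 2.4.6, and plots matplotlib 3.10.9. The fits were tested on simulated data. Alternatives were RLE scaling, no filter, DESeq2 1.42.0, a replicate block, leaving out each library, other gates, all barcodes, no cells of highest UMI count and thinning to 300 UMIs.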

Additional observations from a re-analysis of the deposited data

Results flagged for a closer look

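BC100530, the most abundant gene of the cluster, had a log2 fold change (OVX over WT) that was 3.01 higher in suprabasal-gated than in basal-gated cells, by a test of the difference itself (interaction term, SE 0.44, edgeR adjusted p = 9.09e-09). In suprabasal-gated cells it had 775 and 501 CPM in OVX and 3128 and 4961 CPM in WT, and in basal-gated cells 8.37 and 15.9 CPM in OVX and 906 and 1298 CPM in WT. The suprabasal OVX values come from 1 cell of OVX1 and 2 cells of OVX2, with 14 and 28 UMIs. Groups of 2 libraries were not searched for single libraries far from the rest.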

How the results depend on the processing

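With 2 libraries a group, counts of calls over all genes moved widely, and the calls of the 8 genes moved as well. In all kept cells 587 genes were called, 1356 without a filter on low counts, 279 after thinning to 300 UMIs and 308 to 1884 without single libraries, and 3 of the 8 genes were called lower after thinning. Stfa1, Stfa2 and Cst6 did not pass the filter on low counts after thinning, so they were not tested there. Same-numbered libraries deviated in opposite directions (correlation -0.57), so the replicate number does not pair them. The replicate block gave 517 genes, and a block with crossed numbers, added after seeing the data, 3489. In basal-gated cells 353 genes were called, 943 without a filter, of which 6 were members called lower, 267 with the block and 167 to 1585 without single libraries. In suprabasal-gated cells 177 genes were called, 84 with the block, 67 with the gate at 0.5% of UMIs and 27 to 253 without single libraries. There 3 members were called lower, 2 with the block, 1 with the gate at 0.5% and 0 to 3 without single libraries. Stfa3 lost its call with the block (edgeR adjusted p = 0.100) and in DESeq2 (adjusted p = 0.117). For the difference between layers 134 genes were called, 57 with RLE scaling, 267 with the gate at 0.5% and 296 with the gate at 1 UMI. With the gate at 0.5% BC100530 was called higher, and Cstb was called too, lower by 2.28 on the log2 scale. The count also moved widely without single libraries, a set added after seeing the data. Between the layers of WT 1088 genes were called, 29 to 1472 without single libraries, with 4 to 7 members higher. The cause of these moves was not tested. No sign of a called value was reversed. DESeq2 called 788, 496 and 125 genes in all kept, basal-gated and suprabasal-gated cells. The summed stefins of chromosome 16 were called under every alternative, at -6.84 to -6.29 on the log2 scale. Depth limits what the zeros can show, since suprabasal-gated OVX cells held 18055 and 55880 UMIs in all.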
